A study of Arabidopsis thaliana with 64 samples.

Results

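The BES1 and BZR1 family of Arabidopsis thaliana is a group of 6 transcription factor genes: BES1 (AT1G19350), BZR1 (AT1G75080), BEH1 (AT3G50750), BEH2 (AT4G36780), BEH3 (AT4G18890) and BEH4 (AT1G78700). The members were taken by gene identifier, and all 6 of the 28775 genes in the deposited table were found and passed the filter on low values. They were read in 40 RNA-seq libraries from leaves of plants that were 4 weeks old and had 16 hours of light in each day. The mutants were atg7-2, DSK2 RNAi, bes1-D and bri1-301, and their reference was WT. Each genotype was dehydrated for 4 hours (3 libraries), starved of fixed carbon for 5 days (2 libraries) or left as a control (3 libraries). The labels describe a further 24 libraries of 4 wrky genotypes, which were not analysed here. The labels give neither the accession background of the lines nor whether replicates are separate plants, and the p-values therefore measure the spread between these libraries, which may be technical.

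Brassinosteroids are growth hormones. They bind the receptor kinase BRI1 and its co-receptor BAK1 at the cell surface, which leads to the inactivation of the kinase BIN2. BIN2 otherwise phosphorylates BES1 and BZR1 and keeps them inactive. Dephosphorylated BES1 and BZR1 enter the nucleus, bind DNA, induce growth genes and repress the genes of brassinosteroid synthesis. BEH1 to BEH4 are homologs that act partly in place of BES1 and BZR1. bes1-D carries a dominant change in BES1 that stabilises the protein, and bri1-301 is a weak allele of the receptor. DSK2 proteins are ubiquitin receptors that carry BES1 to autophagy, which needs ATG7. The regulation named here acts mostly on the proteins, whereas the libraries measure transcripts.

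The family binds 2 kinds of short DNA element, the brassinosteroid response element (BRRE, searched as CGTGTG or CGTGCG on both strands) and the G-box (CACGTG). The search covered 250 bases before to 50 after each gene start of the RefSeq annotation, in the TAIR10.1 assembly. BEH2 held 4 BRRE matches and 3 G-boxes, some of which overlap. Of 27443 promoters of this length, 0.0219% held at least 4 BRRE matches and 0.106% at least 3 G-boxes. BZR1 held 2 BRRE matches and 1 G-box, and BEH4 held 2 G-boxes. BES1, BEH1 and BEH3 held neither element, which says only that these letters are not in this window. At least 1 BRRE was found in 8.19% of all promoters and at least 1 G-box in 7.68%. The looser E-box CANNTG, which includes the G-box, was found in 61.7%, and in 5 members, all but BEH3. The 250 bases before the gene start are shown for the members on which the results turn, read 5′ to 3′ on the strand of the gene, with BRRE and G-box matches in capitals.
BEH2 (chr4:17334356-17334605, minus strand): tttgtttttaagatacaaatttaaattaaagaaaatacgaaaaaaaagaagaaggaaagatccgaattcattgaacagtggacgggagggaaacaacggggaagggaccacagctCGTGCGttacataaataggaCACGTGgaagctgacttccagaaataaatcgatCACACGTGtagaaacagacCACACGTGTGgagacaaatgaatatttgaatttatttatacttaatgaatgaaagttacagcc
BEH1 (chr3:18863398-18863647, minus strand): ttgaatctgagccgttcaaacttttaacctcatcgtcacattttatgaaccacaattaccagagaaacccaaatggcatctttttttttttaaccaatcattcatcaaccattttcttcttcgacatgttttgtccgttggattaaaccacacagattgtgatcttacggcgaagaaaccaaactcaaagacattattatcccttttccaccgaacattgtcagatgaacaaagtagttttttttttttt
BES1 (chr1:6688213-6688462, plus strand): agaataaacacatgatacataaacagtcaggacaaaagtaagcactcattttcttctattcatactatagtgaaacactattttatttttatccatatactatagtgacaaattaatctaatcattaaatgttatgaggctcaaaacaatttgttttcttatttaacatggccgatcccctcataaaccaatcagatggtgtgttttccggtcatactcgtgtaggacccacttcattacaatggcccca
BZR1 (chr1:28185254-28185503, plus strand): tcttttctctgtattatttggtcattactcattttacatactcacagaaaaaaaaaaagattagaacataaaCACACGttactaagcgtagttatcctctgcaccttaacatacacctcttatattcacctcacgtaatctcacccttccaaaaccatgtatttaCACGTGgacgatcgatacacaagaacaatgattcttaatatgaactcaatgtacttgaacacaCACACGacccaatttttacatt
BEH4 (chr1:29599099-29599348, plus strand): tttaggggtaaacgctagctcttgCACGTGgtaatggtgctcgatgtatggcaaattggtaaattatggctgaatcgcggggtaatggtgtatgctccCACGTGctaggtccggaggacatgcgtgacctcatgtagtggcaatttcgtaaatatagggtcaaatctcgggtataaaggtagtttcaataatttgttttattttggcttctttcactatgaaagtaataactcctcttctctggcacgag
In BEH2 the BRRE matches began 135, 82, 63 and 59 bases before the gene start, and the G-boxes 115, 80 and 61 bases before it. A match describes the letters and is not a measured binding site.

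The deposited values are per-library scaled reads, which the authors name RPM. The libraries held 26634819 to 30375860 reads in genes, and 3 reads correspond to 0.101 to 0.114 RPM, so every member stood above that level in every library. Coding sequences of BES1 and BZR1 were 85% identical, against 63.1% to 72.8% for the other pairs. Of the windows of 50 bases (the read length) in BES1 exons, 4.42% matched elsewhere in the genome with up to 2 mismatches, and of those in BZR1 exons 5.8%. None did in the other 4 members. BEH4 overlaps its neighbour TBL42 on the same strand over 430 bases, BES1 overlaps RRA3 on the opposite strand over 818 bases, and BZR1 overlaps AT1G75090 on the opposite strand over 629 bases. The sources used here do not state how the authors assigned such reads. The targeted transcripts DSK2A and DSK2B averaged 6.63 ± 0.72 and 14.8 ± 0.86 RPM in DSK2 RNAi controls, against 69.0 ± 7.5 and 133 ± 2.4 RPM in WT controls (SD, n = 3). In the starved libraries labelled DSK2 RNAi, DSK2B stood at 125 and 186 RPM, against 210 and 220 RPM in starved WT, while DSK2A stayed at 9.51 and 10.2 RPM. ATG7 was at 14.2 to 17.9 RPM in atg7-2 controls and 10.3 to 12.0 RPM in WT controls; this sum over the whole gene does not check an insertion allele.

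BES1 was the most abundant member in leaves without stress. Per kb of transcript, BES1 reached 131 ± 2.7 RPM in atg7-2, 185 ± 15 in DSK2 RNAi, 289 ± 57 in bes1-D, 133 ± 27 in bri1-301 and 196 ± 23 in WT controls (SD, n = 3 each). In WT controls BEH2 followed at 42.0 ± 1.2 RPM per kb, BZR1 at 38.1 ± 1.7, BEH1 at 36.4 ± 3.6, BEH4 at 24.8 ± 1.2 and BEH3 at 2.73 ± 0.26. The libraries of BZR1 and BEH1 overlapped in that order, and all other neighbours were apart. Relative to its own lowest library, BES1 spanned a 54-fold range over the 40 libraries and BEH2 a 23.7-fold range. BEH1 spanned 9.18-fold, BEH4 4.04-fold, BEH3 2.87-fold and BZR1 2.43-fold. The plot of every library shows where these ranges lie.

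**Figure D1:**
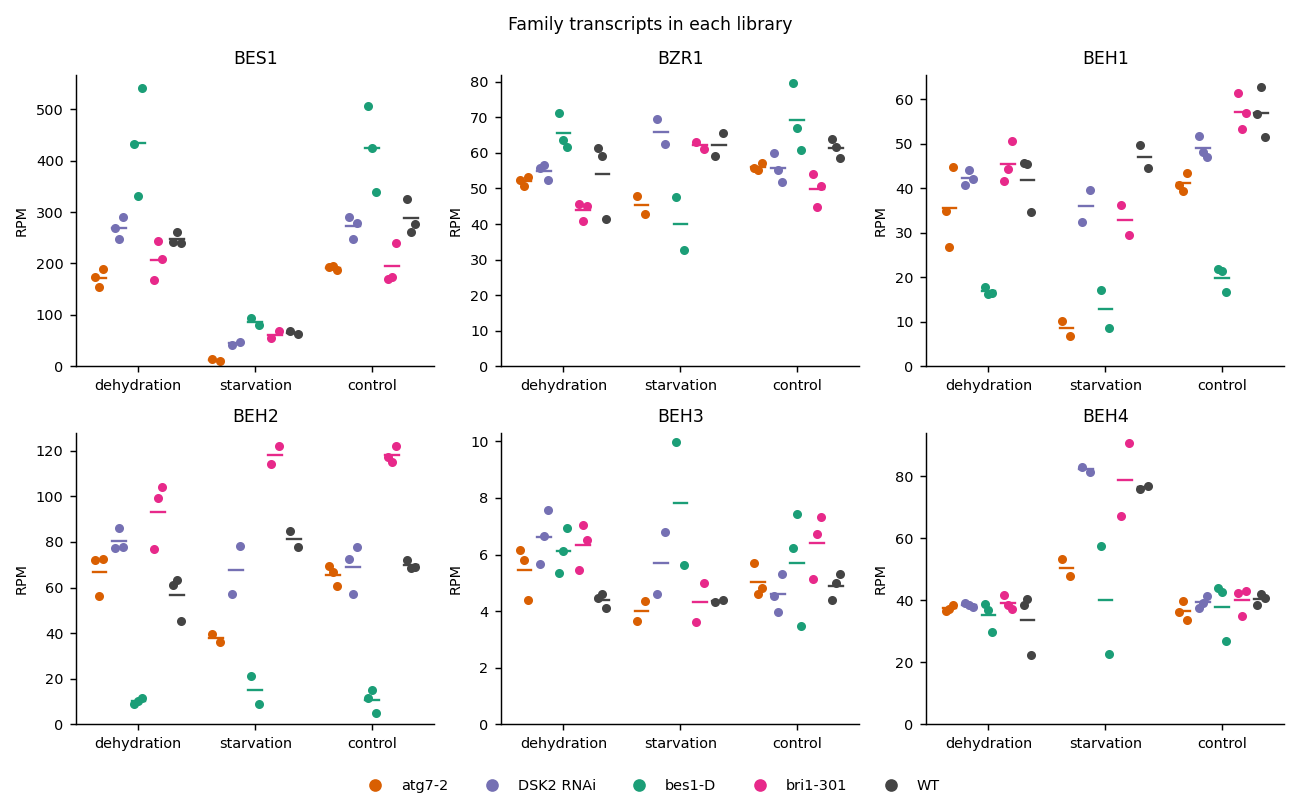
RPM of each family member (y axes, linear from 0, each panel with its own scale) in every library, by treatment (x axis) and genotype (colour); points are libraries and bars are group means. BES1 lies at 10.0 to 93.6 RPM in the starved libraries and at 155 RPM or more in all others, and BEH2 lies at 5.15 to 21.1 RPM in bes1-D.

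BES1 fell under fixed carbon starvation in every genotype. Starved atg7-2 libraries had 13.8 and 10.0 RPM of BES1, against 193, 195 and 187 RPM in atg7-2 controls. Starved libraries labelled DSK2 RNAi had 42.2 and 47.9 RPM, against 290, 247 and 279 RPM in DSK2 RNAi controls. In bes1-D, starved libraries had 93.6 and 80.5 RPM, against 507, 425 and 340 RPM in controls. No starved library overlapped its controls. In bri1-301 the starved libraries had 54.1 and 69.5 RPM, against 170, 174 and 240 RPM in controls, and in WT 68.6 and 62.0 RPM, against 326, 261 and 277 RPM. The log2 differences were -3.97 ± 0.20 in atg7-2, -2.58 ± 0.20 in DSK2 RNAi, -2.26 ± 0.20 in bes1-D, -1.64 ± 0.20 in bri1-301 and -2.13 ± 0.20 in WT (SE). All passed limma's test over all genes, with adjusted p-values from 3.52e-17 in atg7-2 to 2.7e-08 in bri1-301. In WT that is a fold of 0.229. All 5 calls held under all 12 alternative settings and with each library left out. The authors' deposited table also marks BES1 as changed under starvation in all 5 genotypes. Among all genes with a yes or no there, 74% were marked in atg7-2, 65.6% in DSK2 RNAi and 64% in bes1-D. In bri1-301 the share was 46.4% and in WT 65%.

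Starvation changed much of the transcriptome, which is the background to these counts. limma called 69.5% of the 19824 tested genes in atg7-2, 61% in DSK2 RNAi, 66% in bes1-D, 54.1% in bri1-301 and 60.4% in WT. Of the 30 family tests 13 were called, 10 of them lower and 3 higher; DESeq2 called 18. With this background the count is not a result about the family. The median of all genes was itself below 0, at -0.52 in atg7-2, -0.15 in DSK2 RNAi, -0.34 in bes1-D, -0.16 in bri1-301 and -0.26 in WT on the log2 scale. Median-of-ratios scaling moved it up by 0.48 in atg7-2, 0.12 in DSK2 RNAi, 0.28 in bes1-D, 0.15 in bri1-301 and 0.19 in WT. Of all called genes in WT, 40.8% were higher, and 48.5% after that scaling; in atg7-2 the shares were 32% and 48.9%.

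BEH4 was the member that rose in limma on RPM, in 3 genotypes. Starved libraries labelled DSK2 RNAi had 82.9 and 81.4 RPM of BEH4, against 37.5, 39.1 and 41.3 RPM in controls. Starved bri1-301 had 67.1 and 90.6 RPM, against 42.5, 34.8 and 43.0 RPM in controls, and starved WT had 75.9 and 76.9 RPM, against 38.4, 42.1 and 40.7 RPM in controls. The groups did not overlap in these 3 genotypes. The log2 differences were 1.06 ± 0.25 in DSK2 RNAi (adjusted p = 0.00055), 0.96 ± 0.25 in bri1-301 (0.00173) and 0.91 ± 0.25 in WT (0.00237, limma), and the calls held under all 12 settings and with each library left out. The starved bri1-301 libraries, at 67.1 and 90.6 RPM, differed in the length dependence of RPM, with slopes of -0.149 and 0.700 (log2 of RPM + 0.5 on log2 of transcript length), the widest gap of any starved group. In atg7-2, starved libraries had 53.2 and 47.7 RPM, against 36.1, 39.7 and 33.5 RPM in controls, a difference of 0.47 ± 0.25 that missed the threshold (adjusted p = 0.0986) and reached 1.02 with median-of-ratios scaling (adjusted p = 1.8e-05). In bes1-D the starved libraries were far apart, at 57.4 and 22.8 RPM, against 44.1, 42.6 and 26.9 RPM in controls. The difference there was -0.03 ± 0.25 (adjusted p = 0.926). It was 0.63 without starved replicate 2 (0.0343) and -0.68 without starved replicate 1 (0.0189), so 1 library decided its direction. Its overlapping neighbour TBL42 averaged 20.9 RPM in starved WT and 11.2 RPM in WT controls. That is a ratio of 1.87, beside 1.89 for BEH4, and the part of shared reads was not tested.

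BEH1 was called lower under starvation in 3 mutants by limma on RPM. Starved atg7-2 libraries had 10.2 and 6.83 RPM of BEH1, against 40.7, 39.4 and 43.4 RPM in controls, a log2 difference of -2.23 ± 0.21 (adjusted p = 1.68e-10, limma). Starved bri1-301 had 36.2 and 29.4 RPM, against 61.3, 53.2 and 56.8 RPM (log2 -0.80 ± 0.21, adjusted p = 0.00235). Starved bes1-D had 17.2 and 8.60 RPM, against 21.8, 21.3 and 16.6 RPM, so these groups overlapped. The call in bes1-D (log2 -0.67 ± 0.21, adjusted p = 0.00722) was lost under 5 of 12 settings, among them -0.36 (adjusted p = 0.1) with median-of-ratios scaling, and without starved replicate 2. In WT, starved libraries had 49.6 and 44.5 RPM, against 56.7, 62.7 and 51.4 RPM, a difference of -0.27 with a 95% interval of -0.71 to 0.17. Starved libraries labelled DSK2 RNAi had 32.3 and 39.5 RPM, against 51.6, 48.2 and 46.9 RPM in controls. BEH1 was not called in WT or DSK2 RNAi, although the starved libraries lay below every control in both.

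The remaining members were BZR1, BEH2 and BEH3. BZR1 in WT had 59.1 and 65.5 RPM when starved, against 63.9, 61.7 and 58.6 RPM in controls, a log2 difference of 0.02 with a 95% interval of -0.31 to 0.35. The groups overlapped. In bes1-D, BZR1 had 47.5 and 32.8 RPM when starved, against 79.7, 66.9 and 60.8 RPM in controls (log2 -0.79 ± 0.16, adjusted p = 6.59e-05, limma), a call lost with only the compared libraries (adjusted p = 0.0607). BEH2 was called in atg7-2 alone, with 39.5 and 36.3 RPM when starved, against 69.3, 67.0 and 60.5 RPM (log2 -0.78 ± 0.28, adjusted p = 0.0155). Both scalings, edgeR and DESeq2 removed that call, with differences of -0.23 to -0.35, and so did leaving out starved replicate 2. In bes1-D BEH2 went the other way on these 4 settings, at 0.73 to 0.83 with adjusted p of 0.00178 or less, against 0.48 ± 0.28 (adjusted p = 0.141) in limma on RPM. In WT BEH2 had 84.9 and 77.9 RPM when starved, against 72.1, 68.4 and 68.9 RPM in controls, without overlap. That rise was not called in limma on RPM and passed in DESeq2, at 0.439 (adjusted p = 0.0314). BEH3, the scarcest member at 3.48 to 9.98 RPM over all libraries, was not called under starvation in limma on RPM. In bes1-D it had 9.98 and 5.63 RPM when starved, against 6.23, 7.45 and 3.48 RPM in controls, and its difference of 0.42 ± 0.25 (adjusted p = 0.13) was 0.68 to 0.78 under both scalings, edgeR and DESeq2, where it passed (largest adjusted p = 0.00174). BZR1 in bri1-301, at 0.32 ± 0.16 (adjusted p = 0.0873), likewise passed on these 4 settings at 0.45 to 0.50 (largest adjusted p = 0.0221). The authors' deposited table marks BEH2 as changed under starvation in bes1-D and WT and not in atg7-2, BEH1 in atg7-2 alone, BEH3 in bes1-D alone, BEH4 in all genotypes but bes1-D, and BZR1 in none.

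**Figure D2:**
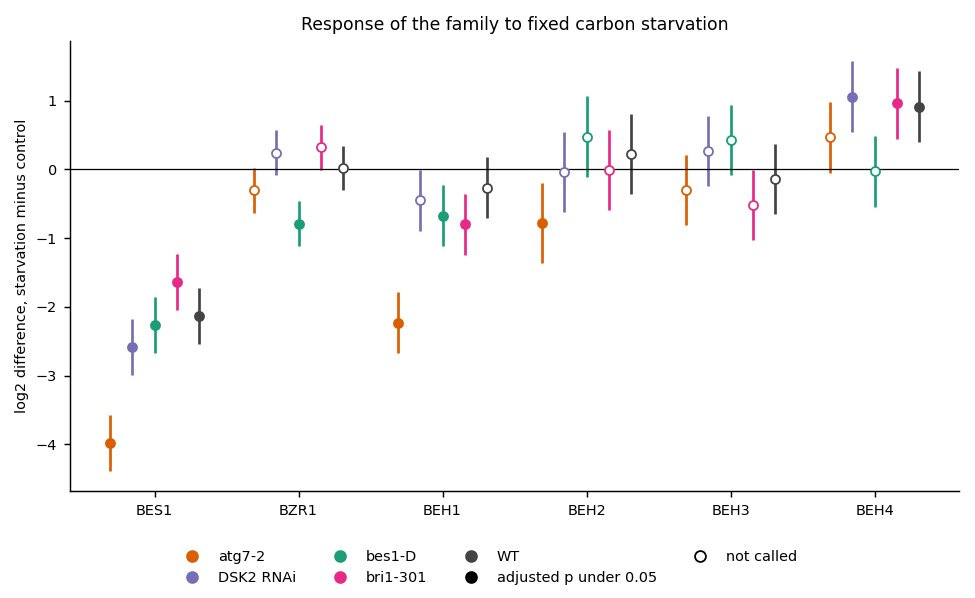
Log2 difference of starvation minus control (y axis, log2 of RPM + 0.5) for each member (x axis) and genotype (colour); bars are 95% intervals from limma and filled points have an adjusted p under 0.05. BES1 lies between -3.97 and -1.64 in all 5 genotypes, while BEH4 lies at 0.91 to 1.06 in DSK2 RNAi, bri1-301 and WT.

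The make-up of the family differed accordingly. Shares were taken of the summed RPM per kb in each library, so the 6 shares sum to 100% and a fall of one member raises the others. The sum itself was 97.8 ± 9.1 RPM per kb in starved atg7-2 against 256 ± 5.2 in its controls, and 212 ± 5.3 in starved WT against 340 ± 23.5 in WT controls (SD). BES1 held 22.2% of the sum on average in 10 starved libraries and 57.4% in 15 controls, lower in 5 of 5 genotypes by 35.2 points (exact permutation test within genotype, two-sided, p = 1e-05, adjusted p over 12 tests = 3e-05). The p of 1e-05 is the smallest that the 100000 arrangements can give. BEH4 held 24.1% against 7.61%, BZR1 21.1% against 11.5% and BEH2 21.3% against 13.3%, each higher in 5 of 5 genotypes with the same p. BEH3 held 1.9% against 0.948%, higher in 4 of 5 genotypes (exact permutation p = 0.0002, adjusted p = 0.00048). BEH1 held 9.5% against 9.3% (adjusted p = 0.815); set against the mean of the other 5 on a log2 scale it differed by -0.48 (adjusted p = 0.000336). In starved WT the order per kb was BEH2 (49.0 RPM per kb), BEH4 (47.0), BES1 (44.5), BZR1 (38.7), BEH1 (30.1) and BEH3 (2.43); BEH2 overlapped BEH4 and BEH4 overlapped BES1. In starved bes1-D, BES1 was still first at 59.3 ± 6.3 RPM per kb, and in starved atg7-2 it was the fourth at 8.09 ± 1.8.

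**Figure D3:**
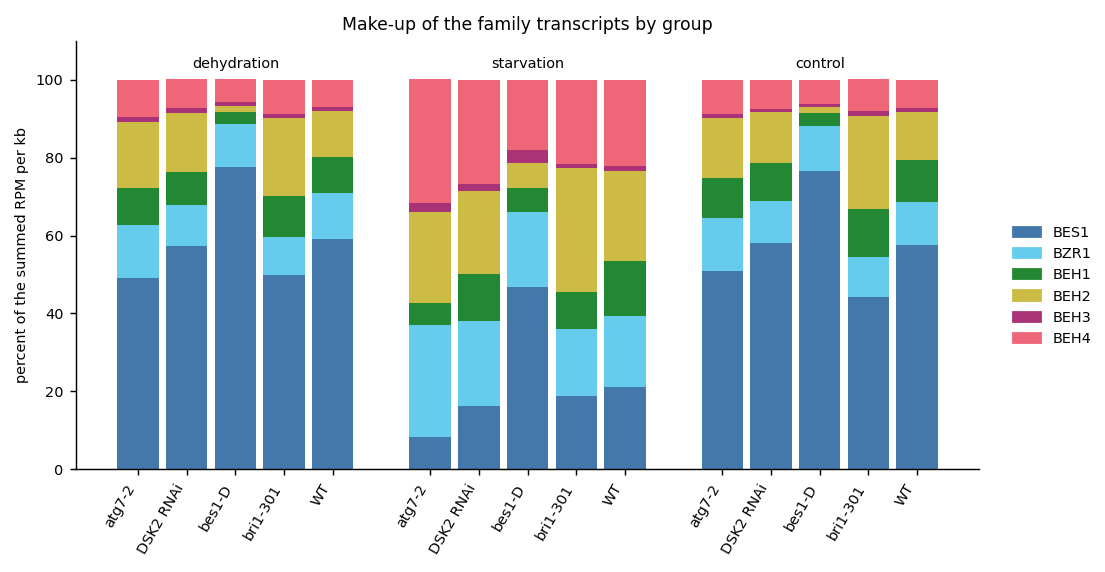
Mean share of each member (colours) in the summed RPM per kb of transcript of the family (y axis, percent) for each genotype and treatment (x axis). BES1 averages 57.5% in WT controls and 21.0% in starved WT, and 8.23% in starved atg7-2.

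Dehydration for 4 hours gave no call for any member. In WT, BES1 had 241, 261 and 239 RPM when dehydrated, against 326, 261 and 277 RPM in controls, and the groups met at 261 RPM. The log2 difference was -0.21, with a 95% interval of -0.58 to 0.15. BEH1 in WT had 45.6, 45.3 and 34.6 RPM, against 56.7, 62.7 and 51.4 RPM; these did not overlap, yet the difference of -0.45 ± 0.19 had an adjusted p of 0.307 in limma. Of 30 family tests 0 were called by limma, edgeR or DESeq2, and 2 had an unadjusted p under 0.05 (BEH1 in WT and BEH3 in DSK2 RNAi). The background in limma was low too, at 0% of genes in atg7-2, 3.82% in DSK2 RNAi, 1.18% in bes1-D, 0.797% in bri1-301 and 0.298% in WT. In atg7-2 1258 genes had an unadjusted p under 0.05 in limma, and edgeR called 0 genes and DESeq2 21. The authors' deposited table marks no member under dehydration, but its shares of all genes with a yes or no were higher. They were 0.588% in atg7-2, 18.8% in DSK2 RNAi, 2.59% in bes1-D, 8.25% in bri1-301 and 2.79% in WT. In bri1-301 the differences lay between -0.35 for BEH2 and 0.08 for BES1, and in bes1-D between -0.23 for BEH1 and 0.14 for BEH3.

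The family shares were compared under dehydration as well. BEH1 held 8.1% of the family's summed RPM per kb in 15 dehydrated libraries and 9.3% in 15 controls, lower in 5 of 5 genotypes by 1.2 points (permutation test with 100000 resamples, two-sided, p = 0.00093, adjusted p = 0.00186). BEH3 held 1.1% against 0.948%, higher in 5 of 5 genotypes (permutation p = 0.0202, adjusted p = 0.0346); without DSK2 RNAi its adjusted p was 0.259 and without atg7-2 0.0627. BES1 held 58.6% against 57.4% (adjusted p = 0.462), and BZR1, BEH2 and BEH4 differed by -0.145, -0.163 and 0.164 points (adjusted p = 0.815 each). WT dehydration replicate 3, bes1-D dehydration replicate 3 and bes1-D control replicate 3 stood apart from their groups in how RPM depended on transcript length, and without them the family count under dehydration was again 0.

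BEH2 and BEH1 were low in bes1-D whatever the treatment. Without stress, bes1-D had 11.4, 15.1 and 5.15 RPM of BEH2, against 72.1, 68.4 and 68.9 RPM in WT. Under dehydration it had 9.01, 10.3 and 11.4 RPM, against 60.9, 63.5 and 45.4 RPM in WT, and under starvation 21.1 and 8.77 RPM, against 84.9 and 77.9 RPM in WT. No bes1-D library reached a WT library in any treatment. The log2 differences were -2.40 ± 0.25 under dehydration (adjusted p = 4.11e-08), -2.53 ± 0.31 under starvation (3.51e-07) and -2.79 ± 0.25 in controls (1.9e-09, limma), the last a fold of 0.145. For BEH1, bes1-D controls had 21.8, 21.3 and 16.6 RPM, against 56.7, 62.7 and 51.4 RPM in WT controls. Its differences were -1.28 ± 0.19 under dehydration (adjusted p = 2.67e-05), -1.91 ± 0.24 under starvation (4.03e-07) and -1.50 ± 0.19 in controls (1.37e-06), again without overlap. The calls in controls and under dehydration held in all 12 settings and with each library left out. Under starvation both were lost with only the compared libraries (adjusted p = 0.0541 for BEH2 and 0.0697 for BEH1), where the difference itself is the same.

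BES1 transcripts were higher in bes1-D, the line with the altered BES1 gene. Controls had 507, 425 and 340 RPM, against 326, 261 and 277 RPM in WT, and dehydrated plants had 433, 332 and 541 RPM, against 241, 261 and 239 RPM in WT. The log2 differences were 0.79 ± 0.18 under dehydration (adjusted p = 0.00296) and 0.55 ± 0.18 in controls (0.033), with no overlap between groups. The call in controls is weak. It was lost with only the compared libraries (adjusted p = 0.164) and on leaving out bes1-D replicate 1 or 2 or WT replicate 2 or 3. The call under dehydration was lost without the 3 libraries that stood apart by length (0.59, adjusted p = 0.0749) and with only the compared libraries (0.0942). Under starvation BES1 had 93.6 and 80.5 RPM in bes1-D, against 68.6 and 62.0 RPM in WT, a difference of 0.41 ± 0.22 that missed the threshold (adjusted p = 0.164) and passed under both scalings, edgeR and DESeq2.

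Starved bes1-D also differed from starved WT in the other 3 members. BEH4 was lower at -1.07 ± 0.27 (adjusted p = 0.00491) and BZR1 at -0.65 ± 0.17 (0.00643), while BEH3 was higher at 0.72 ± 0.27 (0.0482, limma). Each of these calls depended on single libraries. Starved bes1-D replicate 2 had 22.8 RPM of BEH4 and replicate 1 57.4, and without replicate 2 the BEH4 difference was -0.41 (adjusted p = 0.477). BZR1 lost its call under 5 settings, with -0.33 on median-of-ratios scaling, and without starved bes1-D replicate 2 or WT replicate 2. BEH3 lost its call under 2 settings and without starved bes1-D replicate 1 (0.33, adjusted p = 0.427) or either starved WT replicate. Those libraries also differed in the length dependence of RPM, with slopes of -0.204 in replicate 1 and -0.616 in replicate 2, against -0.187 and -0.0116 in starved WT. With the length trend removed the 3 calls held.

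In bri1-301, the weak receptor line, no member was called. BEH2 had 117, 115 and 122 RPM in bri1-301 controls, against 72.1, 68.4 and 68.9 RPM in WT controls, and the groups lay well apart. The difference of 0.76 ± 0.25 had an adjusted p of 0.225 in limma, and DESeq2 gave 0.57 with an adjusted p of 0.0411. Under dehydration bri1-301 had 76.8, 99.1 and 104 RPM, against 60.9, 63.5 and 45.4 RPM, and under starvation 114 and 122 RPM, against 84.9 and 77.9 RPM in WT. All 8 bri1-301 libraries were above every WT library of the same treatment. BES1 had 170, 174 and 240 RPM in bri1-301 controls, against 326, 261 and 277 RPM in WT controls. That difference of -0.57 ± 0.18 had an adjusted p of 0.152, and passed with both scalings, edgeR and DESeq2, at -0.71 to -0.77. Under starvation BEH1 had 36.2 and 29.4 RPM in bri1-301, against 49.6 and 44.5 RPM in WT, a difference of -0.52 ± 0.24 (adjusted p = 0.218) that passed on the same 4 settings at -0.73 to -0.76 (largest adjusted p = 0.0471). The authors' deposited table marks BES1 and BEH2 as changed in both bes1-D and bri1-301 against WT, under headers that name no treatment. Among all genes with a yes or no there, 21.5% were marked in bes1-D and 3.04% in bri1-301.

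Under starvation alone, limma on RPM called members in atg7-2 against WT. Starved atg7-2 had 13.8 and 10.0 RPM of BES1, against 68.6 and 62.0 RPM in starved WT (log2 -2.42 ± 0.22, adjusted p = 2.34e-10). BEH1 had 10.2 and 6.83 RPM, against 49.6 and 44.5 RPM (log2 -2.42 ± 0.24, adjusted p = 1.32e-09), and BEH2 39.5 and 36.3 RPM, against 84.9 and 77.9 RPM (log2 -1.09 ± 0.31, adjusted p = 0.00388, limma). None of these groups overlapped, and the 3 calls held under all settings. Cell type markers differed between the same groups. The mesophyll sum was 354 to 458 RPM in starved atg7-2 against 1120 to 1140 RPM in starved WT. The epidermal sum was 43.8 to 49.9 against 56.7 to 60.3 RPM. The epidermal transcripts did not move alike. PDF1 averaged 1.64 against 29.4 RPM, and starvation changed it by -5.368 in atg7-2 and -2.409 in WT (log2). ATML1 and PDF2 fell less in atg7-2 than in WT, at -0.354 against -1.465 and -1.406 against -2.053. The guard cell sum was 9.53 to 10.8 against 13.3 to 17.7 RPM, the phloem sum 24.8 to 26.8 against 32.7 to 34.1 RPM, and the xylem sum 0.477 to 0.615 against 0.0337 to 0.069 RPM. Their part in the atg7-2 values was not tested. BZR1, with 48.0 and 42.7 RPM against 59.1 and 65.5 RPM, was called at -0.45 ± 0.17 (adjusted p = 0.0278) but not with either scaling, edgeR or DESeq2, nor without starved atg7-2 replicate 2 or either starved WT replicate. In controls BES1 had 193, 195 and 187 RPM in atg7-2, against 326, 261 and 277 RPM in WT, a difference of -0.58 ± 0.18 at the edge of the threshold (adjusted p = 0.0525). The corresponding value under dehydration was -0.52 ± 0.18 (adjusted p = 0.0573). Both passed with both scalings, edgeR and DESeq2. In limma, BES1 in controls also passed with a filter at 5 RPM, a replicate block or the length trend removed (largest adjusted p = 0.0486). It passed without the 3 libraries that stood apart by length too (0.0259). BEH1 in controls passed in DESeq2 alone, at -0.51 (adjusted p = 0.0425). The authors' deposited table marks BES1 and BEH1 as changed in atg7-2 against WT, beside 13.7% of all genes with a yes or no. The header of that comparison names no treatment. No member was called in DSK2 RNAi in any treatment, and under starvation BES1 stood at 42.2 and 47.9 RPM in the libraries labelled DSK2 RNAi, against 68.6 and 62.0 RPM in WT (log2 -0.53 ± 0.22, adjusted p = 0.0837). That difference passed with both scalings, edgeR and DESeq2, at -0.73 to -0.75. BEH1, at 32.3 and 39.5 RPM against 49.6 and 44.5 RPM (log2 -0.39 ± 0.24, adjusted p = 0.239), also passed on these 4 settings, at -0.59 to -0.61 (largest adjusted p = 0.0456).

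Of the 72 tests of mutant against WT, 15 were called, 12 lower and 3 higher. The background in controls was 4.74% of genes in atg7-2, 0.0656% in DSK2 RNAi, 15.7% in bes1-D and 0.963% in bri1-301. Under dehydration it was 9.42% in atg7-2, 0.282% in DSK2 RNAi, 9.31% in bes1-D and 1.11% in bri1-301, and under starvation 54.2%, 15.2%, 25.4% and 2.16% in the same order of lines. In bes1-D 3 of 6 members were called in controls, 3 of 6 under dehydration and 5 of 6 under starvation, and in starved atg7-2 4 of 6. Median-of-ratios scaling moved the median of all genes in bes1-D against WT by 0.18 in controls and 0.23 under starvation, and the share of called genes that were higher became 57.9% in place of 43.5% in controls and 55.9% in place of 37.3% under starvation. In atg7-2 against WT under starvation it moved the median by 0.21, and the share became 48.9% in place of 33.4%. The calls for BEH1 and BEH2 in bes1-D and for BES1, BEH1 and BEH2 in starved atg7-2 kept their direction under both scalings.

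**Figure D4:**
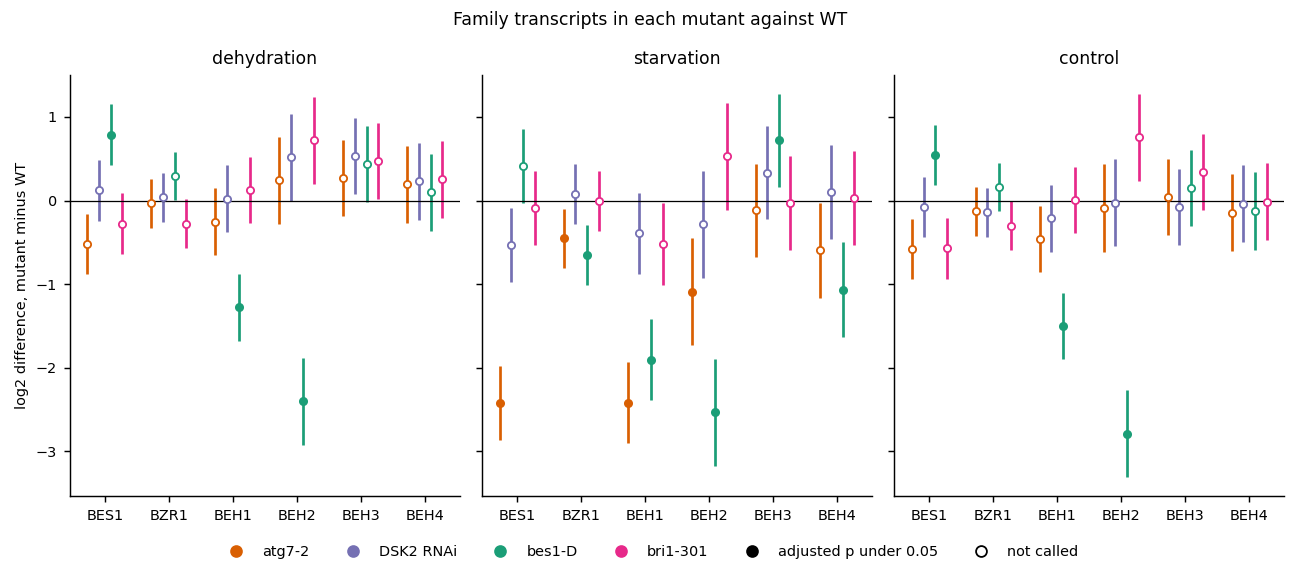
Log2 difference of each mutant minus WT (y axis, log2 of RPM + 0.5) for each member (x axis) in each treatment (panels); bars are 95% intervals from limma and filled points have an adjusted p under 0.05. In bes1-D BEH2 lies between -2.79 and -2.40 in the 3 panels, and in atg7-2 BES1 lies at -2.42 under starvation.

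The starvation response itself was compared between each mutant and WT by an interaction term. In atg7-2 the response of BES1 differed from that in WT by -1.85 ± 0.28 on the log2 scale (adjusted p = 9.39e-06), that of BEH1 -1.96 ± 0.30 (1.37e-05) and that of BEH2 -1.002 ± 0.40 (0.0483, limma). The first 2 held under every setting and every library left out. The BEH2 interaction fell on the other side of the threshold on leaving out any of the 10 libraries and under 4 settings (largest adjusted p = 0.139). In bes1-D the response of BZR1 differed by -0.81 ± 0.22 (adjusted p = 0.0292), lost under 5 settings and on leaving out any of 5 libraries (starved bes1-D replicate 2 gave the smallest value, -0.55). BEH4 in bes1-D differed by -0.94 ± 0.35 (adjusted p = 0.153). Of the 12 settings, it passed only with TMM scaling (-0.895, adjusted p = 0.0394) and without the 3 libraries that stood apart by length (-1.168, 0.0189). Leaving out starved bes1-D replicate 1 gave -1.596. For BES1 the interaction was -0.46 ± 0.28 in DSK2 RNAi (adjusted p = 0.415), -0.14 ± 0.28 in bes1-D (0.921) and 0.49 ± 0.28 in bri1-301 (0.735). Called were 4 of 48 interaction tests, against a background for starvation of 37.9% in atg7-2, 0.207% in DSK2 RNAi, 4.45% in bes1-D and 0.893% in bri1-301. None of the 24 dehydration interactions was called; limma called 0% of genes in atg7-2 (358 with an unadjusted p under 0.05), 0% in DSK2 RNAi (532), 0.0656% in bes1-D and 0% in bri1-301 (199). edgeR and DESeq2 also called 0 genes in atg7-2, DSK2 RNAi and bri1-301.

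Markers of leaf cell types moved with starvation. The summed RPM of 4 mesophyll transcripts (RBCS1A, RBCS2B, LHCB1.1 and LHCB2.1) was 354 to 1400 in starved libraries and 14900 to 26300 in controls. The 3 epidermal transcripts (ATML1, PDF1 and PDF2) summed to 36.0 to 99.4 RPM in starved libraries and 150 to 331 RPM in controls, and 2 phloem transcripts (SUC2 and APL) to 11.9 to 62.7 against 57.6 to 138 RPM. The 3 xylem transcripts XCP1, IRX3 and VND7 summed to 0.646 RPM or less against 8.08 to 30.5 RPM, and VND7 was at or under 3 reads in every starved library. So was IRX3 in atg7-2, bes1-D and WT, and XCP1 in WT. Guard cell transcripts (FAMA and MYB60) summed to 4.57 to 26.9 against 8.3 to 36.4 RPM, floral transcripts (AP3, SEP3 and AG) to 0.716 to 2.99 against 0.593 to 6.0 RPM, and root transcripts (SCR and PLT1) to 3.62 to 19.8 against 19.6 to 32.2 RPM, with PLT1 at or under 3 reads in all of these libraries. Single markers of a sum did not always move. In starved WT, SUC2 (-1.547) and MYB60 (-1.62, log2) were called lower, while APL (-0.247) and FAMA (-0.172) were not called. APL was called lower in starved atg7-2 (-0.678) and bes1-D (-0.76). The part of the markers in the family's values was not tested. In bulk tissue fewer cells of a type and less RNA per cell cannot be told apart. In controls the epidermal sum was 290 to 331 RPM in bes1-D against 243 to 271 RPM in WT. It was 150 to 175 RPM in atg7-2 controls. The guard cell sum was 8.3 to 18.9 RPM in bes1-D controls against 20.2 to 25.9 RPM in WT controls, the floral sum 0.593 to 1.4 against 1.85 to 3.22 RPM, and the phloem sum 57.6 to 65.9 against 58.5 to 115 RPM.

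The genes above and below the family were taken as 3 lists. Upstream, 16 of 17 signalling genes passed the filter. In starved WT 6 of them were higher and 6 lower, beside 60.4% of all genes called, with a median of -0.01 against -0.26 for all genes. BSK2, a receptor-associated kinase, fell by 2.82 ± 0.32 and the receptor BRI1 fell by 2.18 ± 0.40, while the phosphatase subunit PP2A B-beta rose by 1.69 ± 0.25 and the kinase BSK1 by 1.29 ± 0.26 (log2, SE). In bes1-D controls, beside 15.7% of all genes, 4 signalling genes were lower and 0 higher, led by BRI1 (-1.39 ± 0.35) and its relative BRL3 (-1.37 ± 0.34), and in bri1-301 controls 0 were called, beside the 0.963% of all genes. Among 25 partners and regulators of the proteins, 6 were higher and 7 lower in starved WT, beside the same 60.4%. RD26, a stress NAC factor that antagonises BES1, rose by 2.58 ± 0.26, and MAX2, an F-box protein of strigolactone signalling, rose by 1.02 ± 0.19. WRKY54 (-1.97 ± 0.37) and TINY (-1.86 ± 0.33), both transcription factors, fell. Members without a symbol in the reference gene table were counted and not named. In bes1-D controls 7 partners were lower and 2 higher, beside the same 15.7%, with HAT1, a homeodomain repressor and partner of BES1, at -2.83 ± 0.38, MYBL2 at -1.29 ± 0.21, WRKY46 at 1.28 ± 0.37 and TINY at 1.27 ± 0.30.

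The known targets of the proteins differed from WT in opposite directions in bes1-D and bri1-301 controls, where limma called 15.7% and 0.963% of all genes. In bes1-D controls 5 of 7 repressed targets were lower and 3 of 7 induced targets higher. In bri1-301 controls 5 of 7 repressed targets were higher and 4 of 7 induced targets lower. The repressed target BR6OX1 averaged 1.39 RPM in bri1-301 controls and 0.184 RPM in WT controls. It reached the 1 RPM of the filter only in bri1-301, so counting it as higher there adds no support. BR6OX2, the enzyme that makes brassinolide, was at -3.76 ± 0.26 in bes1-D (adjusted p = 4.8e-12) and 3.42 ± 0.26 in bri1-301 (2.19e-10, limma). CPD, a brassinosteroid hydroxylase, was at -2.60 ± 0.19 in bes1-D, and ROT3, another, at 2.55 ± 0.20 in bri1-301. Of the induced genes SAUR15 was at 1.51 ± 0.31 and PRE5 at 1.38 ± 0.27 in bes1-D, and PRE6 at -2.57 ± 0.27 and EXPA8, an expansin, at -2.14 ± 0.45 in bri1-301. Beside them BEH2 stood at -2.79 in bes1-D and 0.76 in bri1-301, the direction of the repressed targets in both, although the second was not called. BEH1, also lower in bes1-D controls, overlapped WT in bri1-301 controls, with 61.3, 53.2 and 56.8 RPM against 56.7, 62.7 and 51.4 RPM. In starved WT, where 60.4% of all genes were called, 6 of 7 induced targets fell, led by EXPA8 (-6.17 ± 0.50) and PRE6 (-6.01 ± 0.30), and XTH22 rose (2.09 ± 0.74). Of the repressed targets 5 of 7 rose, led by DWF4 (1.85 ± 0.37) and IBH1 (1.60 ± 0.26). In dehydrated WT, where 0.298% of all genes were called, 1 of 14 targets was called, XTH22 at -3.09 ± 0.66 (adjusted p = 0.0403). All mutant comparisons share the WT libraries.

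**Figure D5:**
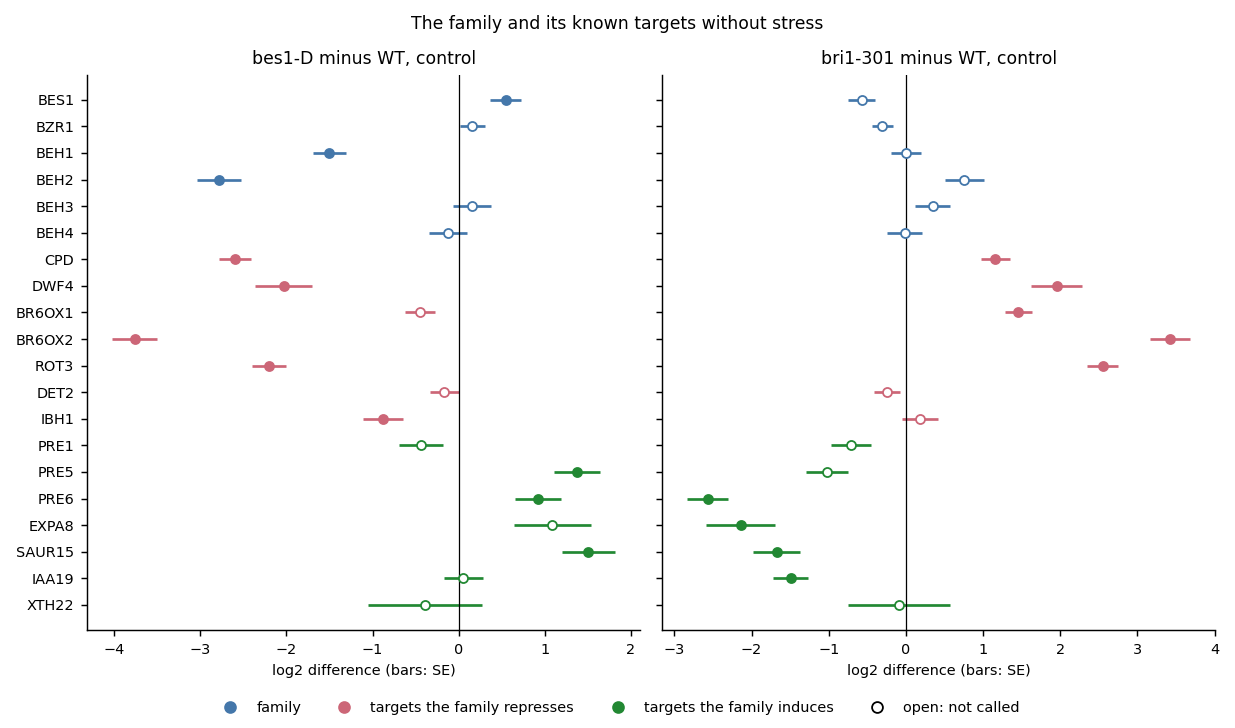
Log2 difference (x axes, log2 of RPM + 0.5) of bes1-D minus WT and of bri1-301 minus WT in controls, for the family and 14 known targets (y axis); bars are SE and open points are not called. BEH2 at -2.79 lies among the repressed targets CPD (-2.60) and BR6OX2 (-3.76) in bes1-D.

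Each member was also set beside the transcripts whose group means followed it most closely, by Pearson's r of log2(RPM + 0.5) over the 15 groups, among 7432 genes. The 15 points share genotypes and treatments, so r is a description. BES1 was followed by RAC6 (r = 0.992) and PDF1 (0.99), and PDF1 is also 1 of the epidermal markers above. BEH2 was followed by TRM9 (0.986), IAA16 (0.977) and TPD1 (0.967), and BEH1 by GPX1 (0.955), SCPL45 (0.94) and IIL1 (0.925). BEH4 was followed by TBL42 (0.969), ABCG22 (0.967) and KAT3 (0.96), and TBL42 is the neighbour with which BEH4 overlaps. For BZR1 the closest were KCS20 (0.83), eIFiso4G1 (0.736) and UBP1B (0.736), and for BEH3 MYB50 (0.851), ADT5 (0.811) and EDS5 (0.809). Among the members themselves the highest r was 0.736, between BEH1 and BEH2, and the lowest -0.667, between BES1 and BEH4.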

How the data were processed

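Leaf RNA was sequenced as single 50-base reads, per the labels' protocols. Per the file headers, the authors' deposited table gives for each gene a signal headed RPM in every library. It is treated here as a signal because the columns sum to 985308 to 1023136. The submitters' processing notes list GSNAP, DESeq2 and the build TAIR10; versions, roles and the use of strand were not given in the sources. Of the 33366 table lines, the 4591 that name no gene were dropped. All values (100%) were whole multiples of 1 read within 0.1 reads, which gave 26634819 to 30375860 reads per library. Floors of 3 reads cover counting error only.

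The 19824 genes that reached 1 RPM in 2 or more libraries were fitted with limma 3.58.1 in R 4.3.3, with a mean-variance trend, on log2(RPM + 0.5), which understates the change of low genes. The fit had 15 group means over 40 libraries (25 residual degrees of freedom). Two-sided p-values were adjusted by Benjamini-Hochberg within each of 30 comparisons and called under 0.05. All groups share 1 estimate of the spread, because starved groups have 2 libraries. edgeR 4.0.16 and DESeq2 1.42.0 on the recovered reads were alternatives. The fit was also run on simulated reads in which few genes changed. Starvation changed far more genes, so that run does not bear on the starvation calls or their scaling. Levels per kb use the median transcript length of TAIR10.1, in which 28009 identifiers matched, and coordinates are of that assembly. Sequences are from RefSeq. Replicate numbers were not used to pair libraries.

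The 6 members and the lists were chosen with earlier results of these data known. All members are named, with the 3 closest genes by r that have a symbol and at least 5 RPM in their highest group, and up to 2 called genes per list and direction. For BES1, 1 of the 3 closest genes is not reported here.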

Additional observations from a re-analysis of the deposited data

Results flagged for a closer look

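The starvation response of 4 members differed between a mutant and WT by the interaction term in limma. In atg7-2 minus WT the difference was -1.845 on the log2 scale for BES1, with both starved atg7-2 libraries below both starved WT libraries. It was -1.959 for BEH1 and -1.002 for BEH2, the last at the edge of the threshold. In bes1-D minus WT it was -0.813 for BZR1. The starved libraries of atg7-2 had median-of-ratios factors of 0.712 and 0.719, and those of bes1-D 0.840 and 0.589. With both scalings the BES1 and BEH1 calls held. The BZR1 value in bes1-D was -0.705 (adjusted p = 0.0973) with median-of-ratios and -0.767 (0.0509) with TMM scaling, close to its value on RPM and past the threshold in neither. BEH2 in atg7-2 was -0.662 (adjusted p = 0.0578) with median-of-ratios scaling. The part of these factors in the differences was not tested further.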

How the results depend on the processing

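Of 32 called results for the members, 19 kept their call and direction under all 12 settings and with each single library left out, and 13 lost the call under at least 1 setting. With only the compared libraries in the fit, 9 of 72 tests of mutant against WT were called, in place of 15; fewer libraries then estimate the spread. Median-of-ratios scaling left 2 interaction calls in place of 4. Leaving out single libraries gave 2 to 5 interaction calls (2 without bes1-D control replicate 1, WT control replicate 3 or either starved WT replicate), 12 to 17 starvation calls, 12 to 18 calls of mutant against WT and 0 under dehydration. For starvation, DESeq2 called 18 and the fit without the 3 libraries that stood apart by length, an alternative chosen after seeing the data, 17, in place of 13. The rule for standing apart looked only at groups of 3 libraries, so starved libraries, with 2 a group, could not be left out by it. For mutant against WT, DESeq2 called 22. The number of shares that differed under dehydration was 1 without atg7-2 and 1 without DSK2 RNAi, in place of 2. Values that turned direction were BEH4 under starvation in bes1-D (0.627 without starved replicate 2, -0.684 without starved replicate 1) and the BEH1 share under starvation (-0.477 as log2 against the other 5); beyond the construction of these settings the cause was not tested. The labels do not say that a replicate number marks a shared plant or day. Of 15 dehydrated libraries, 9 correlated best with the control of their own number. Each was compared with the 3 controls of its genotype, so 1 in 3 would match without any link. With the number as a replicate block, 14 members were called under starvation, 0 under dehydration, 16 between mutant and WT and 3 for interaction. Precision is limited by 2 starved libraries a group rather than by depth, since the lowest member value was 3.48 RPM against a 3-read floor of at most 0.114 RPM.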
